A study of Mus musculus with 12 samples.

Results

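The apolipoprotein genes described here were Apoa1, Apoa2, Apoa4, Apoa5, Apob, Apoc1, Apoc2, Apoc3, Apoc4 and Apoe, 10 of the 32285 genes counted, and each was found once by its symbol. Liver cells of neonatal C57BL6/J mice were profiled by droplet scRNA-seq, with 1 library per mouse and no pooling. The 6 mice with phlebotomy-induced anemia (PIA) had 20 µL of blood per g of body weight drawn from the facial vein on every other day from postnatal day (P) 2 to P10, which brought the hematocrit to 20 to 24%, and the 6 control mice had a daily needle stick without a blood draw. Pups of the same litters were randomised to the groups, were nursed by the dam, and were euthanised at P11, a day after the last draw. Nothing in the labels tells which mice shared a litter. Reads of Xist and of Y-linked genes gave 4 females and 2 males in the control group and 2 females and 4 males in the PIA group.

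Apolipoproteins are the proteins that wrap lipid into particles that can travel in plasma. Apob is the structural protein of very low density lipoprotein and stays on its particle, Apoa1 and Apoa2 build high density lipoprotein, and the small C apolipoproteins, Apoa4, Apoa5 and Apoe exchange between particles. Apoc2 activates lipoprotein lipase, Apoc1 and Apoc3 slow the clearance of triglyceride-rich particles, Apoa5 favours their lipolysis, and Apoe is the ligand with which remnants enter cells. Hepatocytes make most of these proteins, and macrophages are a known second source of Apoe.

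On GRCm38, 4 of the genes lie within 43340 bases of chromosome 9 and 4 others within 27610 bases of chromosome 7. On chromosome 9, Apoa1 (46228580 to 46230466, plus strand) is followed by Apoc3 (46232933 to 46235636, minus strand), Apoa4 (46240696 to 46243459, plus strand) and Apoa5 (46268633 to 46271919, plus strand). The gap between Apoa1 and Apoc3 is 2466 bases and that between Apoc3 and Apoa4 is 5059 bases. On chromosome 7, Apoc2 (19671579 to 19677941), Apoc4 (19678083 to 19681479), Apoc1 (19689481 to 19692660) and Apoe (19696109 to 19699188) all lie on the minus strand. Apoa2 lies on chromosome 1 (171225054 to 171226379, plus strand) and Apob on chromosome 12 (7977648 to 8016835, plus strand). Apoa4 overlaps the antisense gene Gm10680 and Apoa5 the antisense gene Gm47544, both of which were counted as genes of their own.

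Promoter sequences of 8 of the 10 genes were found in the RefSeq table of GRCm38.p6, in which Apoc1 and Apoc3 had no entry. The bases directly upstream of Apoa1, Apoa4 and Apoa5, up to the first of their GENCODE and RefSeq starts (the RefSeq start for Apoa5, which lies before the GENCODE start given above), are printed because these 3 neighbours on chromosome 9 moved in different directions in anemia. Capitals mark 3 short words that were searched on both strands, CAAAGTNCA (a word of the kind bound by Hnf4a), TGTTTGC (a forkhead word) and TATAAA (as in many core promoters). They run 5′ to 3′ on the plus strand, from chr9:46228380-46228579 for Apoa1, chr9:46240594-46240695 for Apoa4 and chr9:46268358-46268607 for Apoa5.
Apoa1: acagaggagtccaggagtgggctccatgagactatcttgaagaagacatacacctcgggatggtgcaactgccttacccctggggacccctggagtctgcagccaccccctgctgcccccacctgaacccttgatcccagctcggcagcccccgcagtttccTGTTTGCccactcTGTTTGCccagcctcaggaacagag
Apoa4: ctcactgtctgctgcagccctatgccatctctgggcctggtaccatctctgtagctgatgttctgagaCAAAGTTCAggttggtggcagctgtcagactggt
Apoa5: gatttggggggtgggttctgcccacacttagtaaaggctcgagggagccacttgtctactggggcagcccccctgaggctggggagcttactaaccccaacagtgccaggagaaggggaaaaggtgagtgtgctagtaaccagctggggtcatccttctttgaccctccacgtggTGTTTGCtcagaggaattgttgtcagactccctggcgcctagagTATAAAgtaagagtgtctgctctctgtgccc
In the first window listed for each of the 8 genes, 250 bases upstream of its RefSeq start, Apoa4 alone held CAAAGTNCA, a word present in 1.19% of 32851 promoter windows of that length. TGTTTGC stood in the windows of Apoa1, Apoa5 and Apob and in 4.3% of all windows, and TATAAA in those of Apoa2, Apoa5 and Apob and in 12.4% of all. None of the 3 words was in the first window of Apoc2, Apoc4 and Apoe. Further windows, which RefSeq lists for Apoa2, Apoa5 and Apoe, were not described.

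The libraries held 46252146 to 74545930 UMIs, each UMI standing for 1 captured mRNA molecule, in 14184 to 21186 kept cells. Clusters were formed without the 10 genes and were named from markers, which gave 16863 hepatocyte-like cells (6870 control and 9993 PIA, 679 to 2726 per mouse) in 6 clusters. The 10 hepatocyte markers together reached 135463 CPM (UMIs scaled to a total of 1000000) in this class, and the erythroid markers 11027 CPM. Levels are given as CPM of all UMIs of a class in a mouse and, since the assay counts 3′ ends, were not divided by gene length. Libraries shared 0.374 to 0.691% of the barcodes of the smaller library.

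In the hepatocyte-like cells, Apoa4 and Apoc3 were far higher in anemic mice, Apoc2 and Apoc1 were modestly higher, and Apob, Apoa5, Apoe and Apoa1 were lower. All 10 genes had enough UMIs to be tested, and 8 passed the edgeR test at an adjusted p under 0.05, 4 in each direction, in a class in which 47.4% of the 11212 genes tested passed (22.3% higher and 25.1% lower). Over all genes 2503 were higher and 2817 lower, and without TMM factors the split was 1490 higher and 4065 lower. The median log2 fold change was 0.17 over the 10 genes and -0.06 over all genes. The lower level of Apoa1 went against the working description of the gene set, in which it barely changed.

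Apoa4, which exchanges between plasma particles and is made in quantity by the intestine, was the gene of the set that moved most. It stood at 29.6 CPM in the lowest control mouse, 35.0 in the median and 72.2 in the highest, and at 517, 730 and 925 CPM in the anemic mice. Each anemic mouse was thus above every control mouse, and 8.04% of all genes had groups separated in that direction. The log2 fold change was 4.26 (SE 0.22, adjusted p = 9.1e-10), the 10th highest of the 11212 genes. Ordered by mean CPM within the class, Apoa4 went from place 2957 in control mice to place 196 in anemic mice.

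Apoc3, its neighbour on the opposite strand, started from a higher level. Its control mice spanned 988 to 1266 CPM (median 1123) and its anemic mice 4366 to 6225 CPM (median 5408), again without overlap. The log2 fold change was 2.41 (SE 0.10, adjusted p = 5.0e-11), the 44th highest, and its place by level went from 91 to 23. Apoc2, the activator of lipoprotein lipase, had 356 to 416 CPM in control mice (median 400) and 467 to 704 CPM in anemic mice (median 556). The groups did not overlap, and the log2 fold change was 0.66 (SE 0.10, adjusted p = 4.4e-05). Apoc1 ranged from 7129 to 7845 CPM in control mice (median 7327) and from 7419 to 9810 CPM in anemic mice (median 8953). The groups overlapped, and its log2 fold change of 0.39 (SE 0.10, adjusted p = 0.00304) was lost with library sizes that had no TMM factors (0.19, adjusted p = 0.073) and in cells with at most 10% mitochondrial UMIs (0.23, adjusted p = 0.20).

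The genes that fell included the structural protein and the main ligand of remnants. Apob had 975 to 2315 CPM in control mice (median 1942) and 584 to 1010 CPM in anemic mice (median 742), and 5 of the 6 anemic mice were below all control mice. Its log2 fold change was -1.13 (SE 0.17, adjusted p = 5.5e-05). Apoe was at 12704 to 14183 CPM in control mice (median 13205) and at 6001 to 9549 CPM in anemic mice (median 7590). These ranges lay apart, with a log2 fold change of -0.66 (SE 0.11, adjusted p = 0.000166).

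Apoa1, the main protein of high density lipoprotein, had 14890 to 18548 CPM in control mice (median 16729) and 7838 to 12285 CPM in anemic mice (median 10982). Again no anemic mouse reached the lowest control mouse, and the log2 fold change of Apoa1 was -0.52 (SE 0.12, adjusted p = 0.0013). With coarser clusters (Leiden resolution 1) it was -0.27 (adjusted p = 0.055) and was no longer called, while 6633 of all 12031 genes tested were. Apoa5 went from 204 to 239 CPM in control mice (median 222) to 71.7 to 167 CPM in anemic mice (median 128), without overlap, with a log2 fold change of -0.71 (SE 0.15, adjusted p = 0.000858). Groups that did not overlap were thus seen for Apoa4, Apoc3, Apoc2, Apoa1, Apoe and Apoa5, against 25.2% of all genes in either direction and 17.2% with every anemic mouse below every control mouse.

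Apoa2 and Apoc4 did not pass the test. Apoa2, the second protein of high density lipoprotein, had 13742 to 17805 CPM in control mice and 14596 to 19649 CPM in anemic mice, with a log2 fold change of 0.16 (SE 0.11, adjusted p = 0.24). Apoc4 had 2349 to 2783 CPM in control mice and 2347 to 2990 CPM in anemic mice, with a log2 fold change of 0.19 (SE 0.09, adjusted p = 0.112). For both the groups overlapped, and without TMM factors, where the median of all genes moved to -0.27, the values were -0.05 and -0.02. With coarser clusters (Leiden resolution 1) both were called, Apoa2 at 0.42 and Apoc4 at 0.44. In that setting 6633 of all 12031 genes tested were called, 3358 of them higher. DESeq2 called Apoc4 (0.22, adjusted p = 0.044), as it did 4978 of all 11212 genes.

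**Figure D1:**
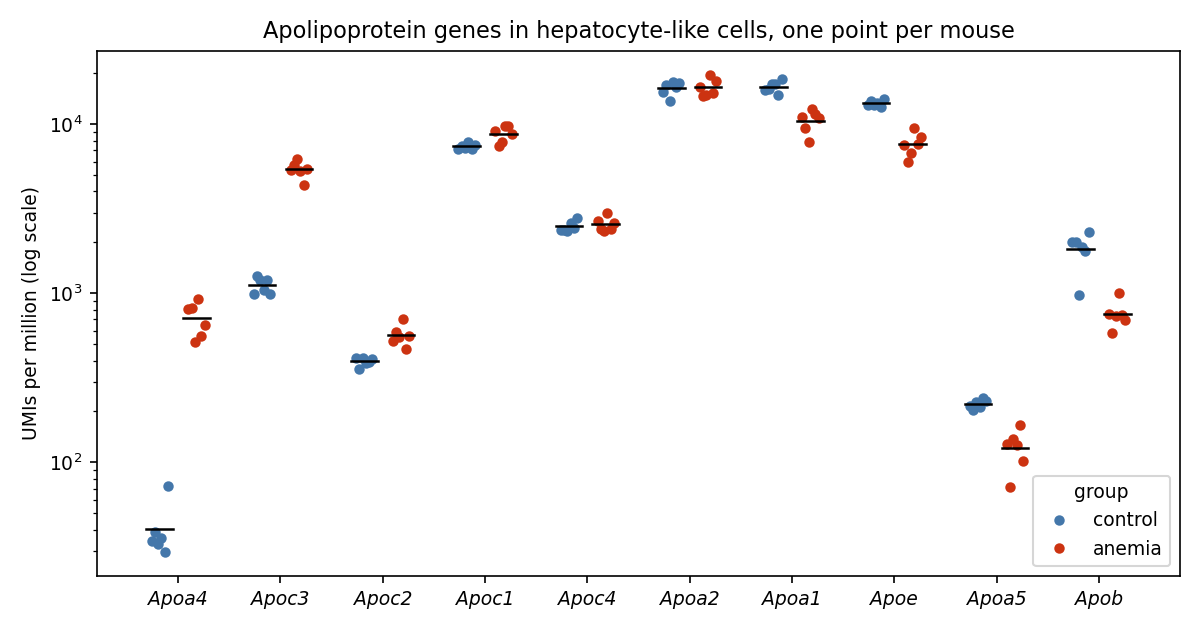
CPM of the 10 genes in hepatocyte-like cells on a log axis, 1 point per mouse (6 control in blue, 6 anemic in red), with a line at each group mean. Apoa4 and Apoc3 were the genes whose groups stood farthest apart, with means of 40.6 and 714 CPM for Apoa4 and of 1117 and 5397 CPM for Apoc3, and Apoa1, Apoe and Apoa5 were separated downward.

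The make-up of the set differed between the groups, while the ranges of its total overlapped. The 10 genes took 5.98 ± 0.319% of all hepatocyte-like UMIs in control mice and 5.36 ± 0.552% in anemic mice (mean ± SD over 6 mice), with ranges of 5.65 to 6.45% and 4.77 to 6.23%. Of the UMIs of the set, Apoa1 gave 27.9% in control and 19.6% in anemic mice and Apoe gave 22.3% and 14.2%. Apoc3 went from 1.87% to 10.2%, Apoa2 from 27.3% to 30.8% and Apob from 3.04% to 1.40%. For each UMI of Apoa1 there were 0.0024 UMIs of Apoa4 in control mice (0.0019 to 0.00389) and 0.0682 in anemic mice (0.0489 to 0.0865), and these ranges, which need no scaling between libraries, did not overlap.

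Several other values of the class moved with the groups. Mitochondrial genes took 9.59 to 10.6% of its UMIs in control mice and 2.79 to 6.25% in anemic mice. The erythroid list summed to 1829 to 7616 CPM in control mice and to 8874 to 29012 CPM in anemic mice, and 7 of its 7 tested genes rose (median log2 fold change 2.23). None of the 8 macrophage genes passed the test, and 3 of 7 endothelial genes fell, of which Cdh5 (-0.51) lost its call in 7 of the 12 fits with 1 mouse left out. In the hepatocyte-like cells with the lower share of erythroid RNA in their library, 8 of the 10 genes were called, as were 47.1% of all genes tested there.

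The 6 hepatocyte-like clusters did not hold the same share of the cells in both groups. Cluster 25, led by Cyp2b9, Cps1 and Abcb11, held 24.6% of the hepatocyte-like cells in control mice and 9.33% in anemic mice, and 50.8% and 19.2% of their UMIs. Its cells were the deepest (median 4058 UMIs), with a median mitochondrial share of 16.2% in control and 15.8% in anemic mice, against 0.885 to 2.75% in the other clusters, and 21.3% and 35.0% of them were called doublets. Clusters 23 (led by A2ml1, Uox and Fabp1) and 28 (led by Gnmt and Cth) went the other way, from 9.86% to 20.6% and from 8.81% to 15.9% of the cells. Clusters 23, 19 and 22 were the shallowest, with medians of 681, 790 and 899 UMIs. Cluster 23, at a median of 0.334 of the depth of its libraries, lay just above the depth limit for naming, which was set after the clusters had been seen.

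The level of the genes differed between these clusters, most of all for Apob. In control mice Apob averaged 3139 CPM in cluster 25 and 87.2 to 659 CPM in the other clusters, and in anemic mice 2699 CPM and 57.0 to 509 CPM. Apoa1 ranged from 3741 to 21602 CPM over the clusters of control mice, whereas Apoc1 ranged only from 6222 to 9385 CPM. The same test was therefore run within each cluster, a comparison chosen after the data had been seen. In clusters 19, 22, 23, 24, 25 and 28, 3, 5, 5, 4, 3 and 5 of the 10 genes passed, against 4.99%, 6.75%, 5.73%, 5.99%, 4.76% and 4.76% of all genes tested in the respective cluster.

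Apoa4 and Apoc3 rose within every cluster. The log2 fold change of Apoa4 was 3.57 to 4.76 (highest adjusted p = 3.1e-07) and that of Apoc3 was 1.67 to 2.50 (highest adjusted p = 2.08e-07), and the CPM of the groups did not overlap in any of the 6. Mean Apoa4 was 8.10 to 50.5 CPM over the clusters of control mice and 113 to 1326 CPM over those of anemic mice. In control mice it lay near the floor in clusters 23 (median 0 CPM, mean 8.10) and 28 (lowest mouse 0 CPM, mean 8.17). Its fold changes in these clusters rest on almost no control counts, and it passed the count filter there through the anemic mice. Apoc2 rose in 5 of 6 clusters (0.32 to 0.74 in all 6), with cluster 28 not past the threshold.

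Of the genes that were lower in the class, Apoe fell in 4 of 6 clusters (-0.66 to -0.15) and Apoa1 in 3 of 6 (-0.72 to -0.22). Apoe was not past the threshold in clusters 19 and 25, nor Apoa1 in clusters 19, 24 and 25. Apob and Apoa5 passed in no cluster, with log2 fold changes of -0.49 to 0.03 for Apob and -0.97 to 0.09 for Apoa5. In the class without cluster 25, where 11.7% of all genes passed, Apob was at -0.61 (adjusted p = 0.018), and without clusters 23 and 28 Apoa1 was at -0.20 (adjusted p = 0.19) and Apoa5 at -0.34 (adjusted p = 0.11), while Apoa2 (0.36) and Apoc4 (0.30) were called as higher. That made 6 of the 10 genes higher and 2 lower, where 36.6% of all genes passed. Apoc1 passed in no cluster (0.04 to 0.42) and was at 0.15 (adjusted p = 0.48) without cluster 25. Apoc4 passed in none of them (-0.14 to 0.19), and Apoa2 fell in cluster 28 (-0.49, adjusted p = 0.0143).

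**Figure D2:**
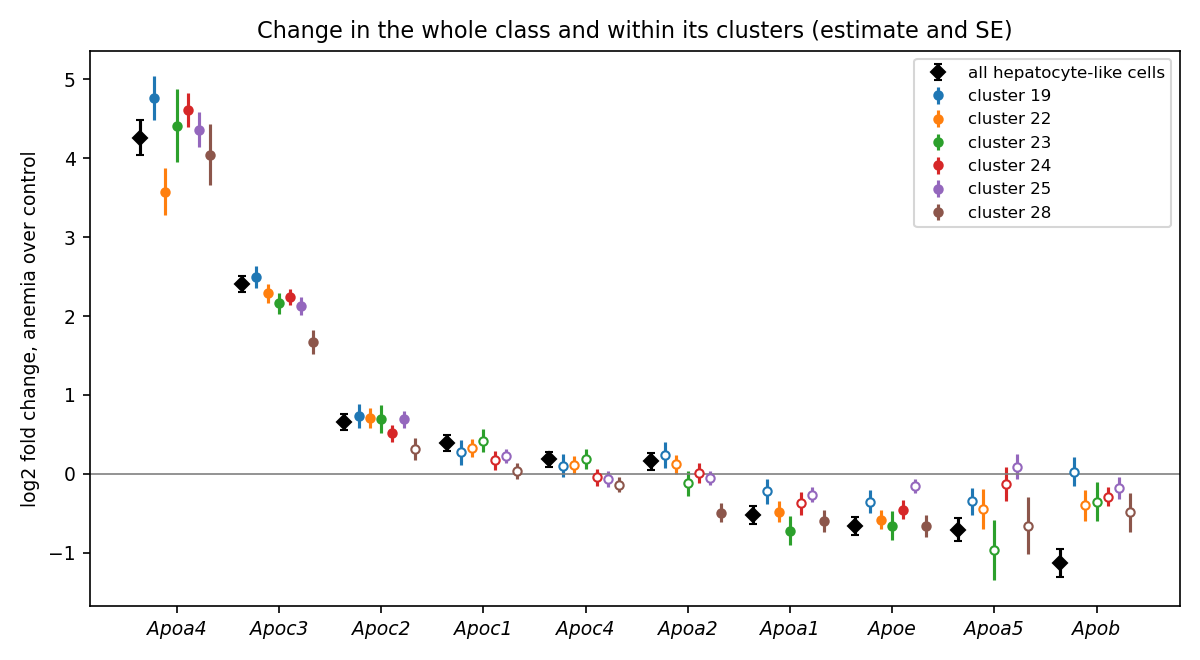
Log2 fold change (PIA over control) of the 10 genes in the whole hepatocyte-like class and in each of its 6 clusters, with bars for the SE, where filled circles passed the test and open circles did not, and the diamond of the whole class is filled throughout. Apoa4 (3.57 to 4.76) and Apoc3 (1.67 to 2.50) stood above 0 in all 6 clusters, and Apob (-0.49 to 0.03) lay nearer to 0 within clusters than its class value of -1.13.

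The share of single cells with RNA of each gene was compared as well. Each cell was thinned to 1000 UMIs to make depths equal, which left 4217 control and 5639 anemic hepatocyte-like cells, and shares of cells with at least 1 UMI were compared over mice with an exact two-sided permutation test, adjusted over the 10 genes. The share of cells with Apoa4 was 3.75 ± 1.30% in control mice and 32.9 ± 6.47% in anemic mice (mean ± SD over 6 mice, exact permutation, adjusted p = 0.00271), and that with Apoc3 was 57.8 ± 3.62% and 94.3 ± 1.53% (exact permutation, adjusted p = 0.00271). Before adjustment the p of both was 0.00216, the smallest that 6 against 6 mice can give. Cells with many UMIs of these genes appeared as well: 2 or more UMIs of Apoa4 were found in 0.151 ± 0.146% of control and 15.6 ± 5.04% of anemic cells, and 5 or more UMIs of Apoc3 in 3.26% and 51.8%.

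Apoc2 was seen in 31.1 ± 0.485% of control and 40.8 ± 5.24% of anemic cells. Apob went from 54.4 ± 6.43% to 30.6 ± 4.10% of cells, and Apoa5 from 17.4% to 9.36%. Both genes were highest in cluster 25, which held 24.6% of control and 9.33% of anemic hepatocyte-like cells. In level neither passed the test within any cluster, and shares within clusters were not computed. Apoa1 and Apoe, near saturation in control mice at 98.4% and 96.9% of cells, were found in 91.7% and 88.8% of anemic cells, and 5 or more UMIs of Apoa1 were found in 89.0% and 67.1%. For Apoc2, Apob, Apoa5, Apoa1 and Apoe the exact permutation gave an adjusted p of 0.00271 each. Without thinning, the share of cells with Apoc2 was 43.1% in control and 48.2% in anemic mice and no longer passed (exact permutation, adjusted p = 0.144). The share with Apoc1 was higher, at 97.7% and 99.2% (exact permutation, adjusted p = 0.00271). The share with Apoa2 was lower in anemic mice, at 99.6% and 99.1% (exact permutation, adjusted p = 0.0337), while the log2 fold change of its level was 0.16. Shares were not computed for genes outside the set. Apoc4 did not differ past the threshold (85.9% and 86.5% of cells, exact permutation, adjusted p = 0.682).

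**Figure D3:**
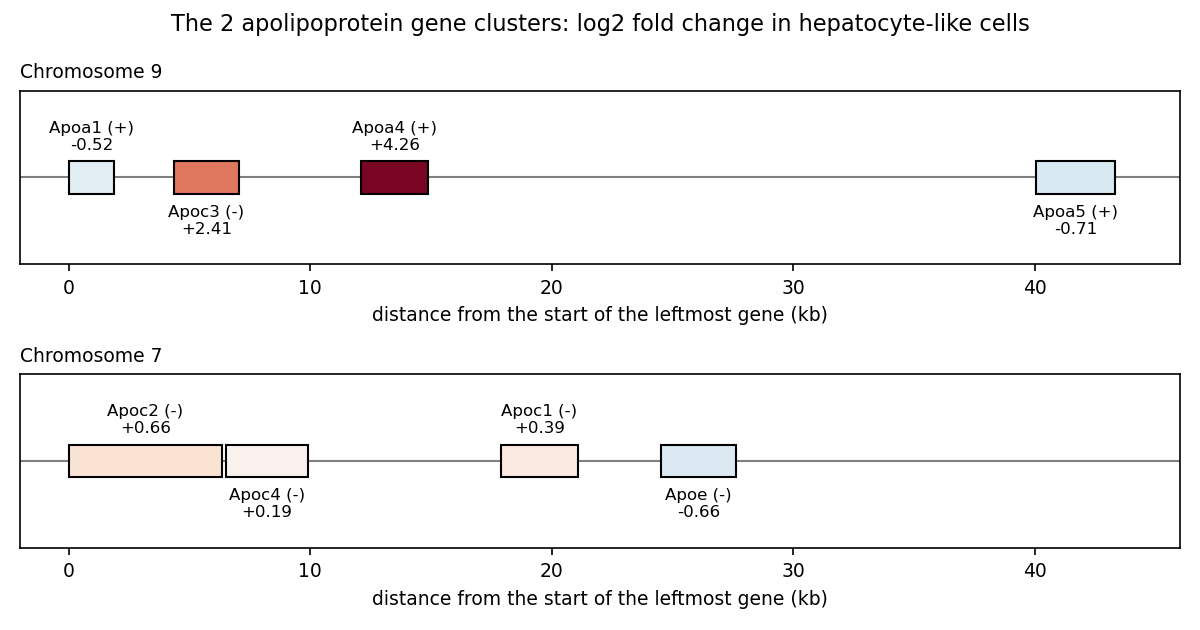
Map of the gene groups on chromosomes 9 and 7, drawn to scale in kb from the start of the leftmost gene, with the strand and the log2 fold change (PIA over control) of each gene in hepatocyte-like cells as number and colour (red higher, blue lower). On chromosome 9 a gene that fell (Apoa1, -0.52) and a gene that rose (Apoc3, 2.41) lay 2466 bases apart, and on chromosome 7 Apoc1 (0.39) and Apoe (-0.66) lay 3448 bases apart.

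Genes that handle the same particles were compared in the same class with lists that are background to the set. Of all genes tested in the class, 22.3% were higher and 25.1% lower, which is the share to set beside the counts of each list. Of 15 genes of lipoprotein assembly and secretion, 3 rose, 6 fell and 6 did not pass (median log2 fold change -0.19, all genes -0.06). Sort1, a sorting receptor, was at -1.35, Mia3 at -0.95, Mttp, which loads lipid onto Apob, at -0.74 and Kif13b at -0.67, and Sar1b, Tm6sf2 and Sar1a rose by 0.34, 0.28 and 0.27. None of these genes passed within any cluster in which it was tested. Sort1 was tested in 1 cluster, and Mia3 (median 0.07 within clusters) and Kif13b in 3 each. Of 14 tested genes of remodelling, 8 fell (median -0.44). Abca1, the lipid exporter to Apoa1, was at -1.13, Lipc, the hepatic lipase, at -0.88 and Angptl8 at -0.66.

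Among 11 tested receptors and uptake genes, 1 rose and 6 fell (median -0.30). Vldlr was at 1.27, Lrp1, a remnant receptor, at -0.86, Hspg2 at -0.82 and Scarb1, the receptor for high density lipoprotein, at -0.61. Within clusters, Lrp1, Lipc, Mttp and Abca1 passed in none of those in which they were tested (3, 6, 4 and 4 clusters), and Angptl8 fell in 4 of 6. Vldlr and Hspg2 were tested in 1 cluster each, where Vldlr rose and Hspg2 did not pass, and Scarb1 fell in 1 of 6.

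Of 15 tested genes for other apolipoproteins and particle proteins, 6 rose and 4 fell (median 0.42). The acute phase proteins Saa2 and Saa1 were at 5.15 and 4.68. No control mouse exceeded 42.4 CPM of either gene, and the anemic mice had medians of 17.8 and 59.6 CPM and highest values of 2166 and 3244 CPM. Without anemic mouse 3 the fold changes were 1.90 for Saa2 (adjusted p = 0.0805) and 2.48 for Saa1 (adjusted p = 0.02). Apol9b rose by 1.57 and Apon by 1.12, and Apol7a, Apoh, Pon1 and Apof were at -0.77, -0.41, -0.37 and -0.24. Within clusters, Apoh (median 0.06), Apof and Apol9b passed in none of 6. Saa1 and Apon rose in 4 of 6 and Saa2 in 3 of 6, and Pon1 fell in 2 of 6 and Apol7a in 2 of 5.

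Of 19 tested regulators, 2 rose and 8 fell (median -0.23). Nr0b2, a nuclear receptor without a DNA-binding domain, was at 1.26 and Nr1h3, an oxysterol receptor, at 0.50. Srebf1, a regulator of lipid synthesis, was at -1.27, Rora at -1.18, Foxa1 at -0.81, Creb3l3 at -0.81, Srebf2 at -0.66, Nr5a2 at -0.55, Nr1h4 at -0.46 and Foxo1 at -0.37. Hnf4a (-0.06) and Ppara (-0.21) did not pass. Within clusters, Nr0b2 rose in 2 of 6 and Creb3l3 fell in 1 of 6, and Srebf1 and Rora passed in none of 3 and 6. Nr5a2 (median 0.23 within clusters) passed in none of 4, Srebf2 in none of 2, and Nr1h3, Nr1h4 and Foxo1 in none of 6. With each mouse left out in turn, the call was lost in 9 of the 12 fits for Foxo1 and Apof, in 8 for the uptake gene Sdc1, in 5 for Sar1a and the remodelling gene Lmf1, in 4 for Foxa1 and in 3 for Tm6sf2. Sdc1 was at -0.30 and Lmf1 at -0.49.

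Outside the hepatocyte-like cells, RNA of the 10 genes was counted in every class. In droplet data, free RNA of lysed cells gives UMIs in cells that do not make it, so 14 other hepatocyte genes, Alb among them, were used as a measure of that RNA. In the 11 other classes tested they stood at 1.30 to 3.65% of their hepatocyte-like level in control mice and at 0.729 to 1.72% in anemic mice. A ratio was formed of each gene to these 14 in a class, divided by the same quantity in the hepatocyte-like cells of the same mouse, so that RNA from those cells alone gives a ratio near 1.

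Apoe was far above that background in 4 classes. In macrophage-like cells its ratio was 32.9 in control and 85.7 in anemic mice (geometric means), in stellate-like cells 7.05 and 16.7, in endothelial-like cells 6.62 and 20.5, and in monocyte-like cells 2.92 and 8.07. In each of these classes all 12 mice were above 1, with lowest ratios of 25.9, 5.47, 5.15 and 2.40 in the same order. All 12 were above 1 in dendritic-like and erythroid-like cells as well, with lowest ratios of 1.10 and 1.01. Of the stellate-like cells, 58.3% were called doublets. In the other 7 classes the ratio was 0.954 to 1.25 in control mice and 1.51 to 2.17 in anemic mice. Of the thinned control cells, 96.8% of macrophage-like, 71.0% of stellate-like, 70.9% of endothelial-like and 58.9% of monocyte-like cells had a UMI of Apoe, against 35.6% of B-like and 29.6% of pre-B-like cells, which serve as background (the lowest median depth of a control mouse before thinning was 1382 UMIs in B-like and 4927 UMIs in macrophage-like cells).

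By level, Apoe in control mice was ordered hepatocyte-like (13330 ± 535 CPM), macrophage-like (5609 ± 420), stellate-like (1970 ± 205), monocyte-like (1267 ± 218), endothelial-like (1253 ± 98.5), erythroid-like (577 ± 81.8), B-like (433 ± 65.8), neutrophil-like (365 ± 58.6), T-like (357 ± 58.7), dendritic-like (320 ± 52.4), NK-like (311 ± 38.8) and pre-B-like (292 ± 29.4), as mean ± SD over 6 mice. Monocyte-like and endothelial-like cells differed by less than their SD, as did each neighbouring pair from neutrophil-like to pre-B-like. Between groups, Apoe was not called in macrophage-like cells (5407 ± 3456 CPM in anemic mice, log2 fold change -0.02, adjusted p = 0.986), in stellate-like cells (1525 ± 319 CPM, -0.30, adjusted p = 0.246), in monocyte-like cells (997 ± 440 CPM, -0.32, adjusted p = 0.573) or in endothelial-like cells (1062 ± 105 CPM, -0.11, adjusted p = 0.414), and the anemic macrophage-like cells ranged over mice from 868 to 9180 CPM, with 3 mice above and 2 below every control mouse. The clusters of these classes held different shares of the cells in the 2 groups. Of the macrophage-like clusters, cluster 5 held 5771 control and 2570 anemic cells and cluster 29 held 331 and 1750, with 46.5% of cluster 29 from anemic mouse 2. Of the monocyte-like clusters, cluster 13 held 1627 and 2578 cells and cluster 10 held 158 and 4860, with 70.6% of cluster 10 from anemic mouse 2. In the endothelial-like class cluster 2 held 9356 and 4200 cells and cluster 12 held 1637 and 2980. The part of this shift in the levels between groups was not tested.

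Apoc1 stood above background in macrophage-like cells, and Apoc2 in monocyte-like and macrophage-like cells and, less evenly over mice, in neutrophil-like cells. The ratio of Apoc1 was 15.7 and 25.3 in macrophage-like cells, where its level was 1484 ± 115 CPM in control mice and 1519 ± 701 CPM in anemic mice (log2 fold change 0.08, adjusted p = 0.894), and 0.849 to 1.26 and 0.77 to 1.30 elsewhere. The ratio of Apoc2 was 15.9 and 25.9 in monocyte-like cells (206 ± 46.8 and 223 ± 59.9 CPM, adjusted p = 0.771), 3.91 and 6.35 in macrophage-like cells and 1.79 and 3.72 in neutrophil-like cells. In neutrophil-like cells 11 of 12 mice were above 1 for Apoc2, with ratios of 0.904 to 11.1 and a median of 27 UMIs. In monocyte-like and macrophage-like cells all 12 were. Apoc2 was found in 17.4% of thinned control monocyte-like cells, 1.88% of neutrophil-like cells and 0.948% of B-like cells.

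With the 14 genes as reference, Apoa1, Apoa2, Apoc3 and Apoc4 stayed near 1 in all 11 classes. Their ratios were 0.982 to 1.14, 0.91 to 1.12, 0.826 to 1.08 and 0.854 to 1.15 in control mice. In anemic mice they were 1.02 to 1.23, 0.808 to 0.939, 0.748 to 1.03 and 0.715 to 1.05. Apoa1 was above 1 in all 12 mice in endothelial-like and macrophage-like cells. With Alb alone the ratios were 1.11 to 1.29, 1.08 to 1.26, 0.937 to 1.17 and 0.951 to 1.32 in control mice. In anemic mice they were then 0.816 to 1.11, 0.624 to 0.844, 0.571 to 0.910 and 0.542 to 0.856. In anemic mice Apoa4 stood at 0.963 to 1.34 over the 11 classes. A median of at least 10 UMIs over the mice of both groups was reached in endothelial-like cells only (17.5, against 60 in anemic mice alone). The ratio of Apoa4 in control mice was 3.27 there. The level of Apoa4 outside hepatocyte-like cells was 0.469 to 1.78 CPM in control mice and 6.28 to 13.8 CPM in anemic mice.

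**Figure D4:**
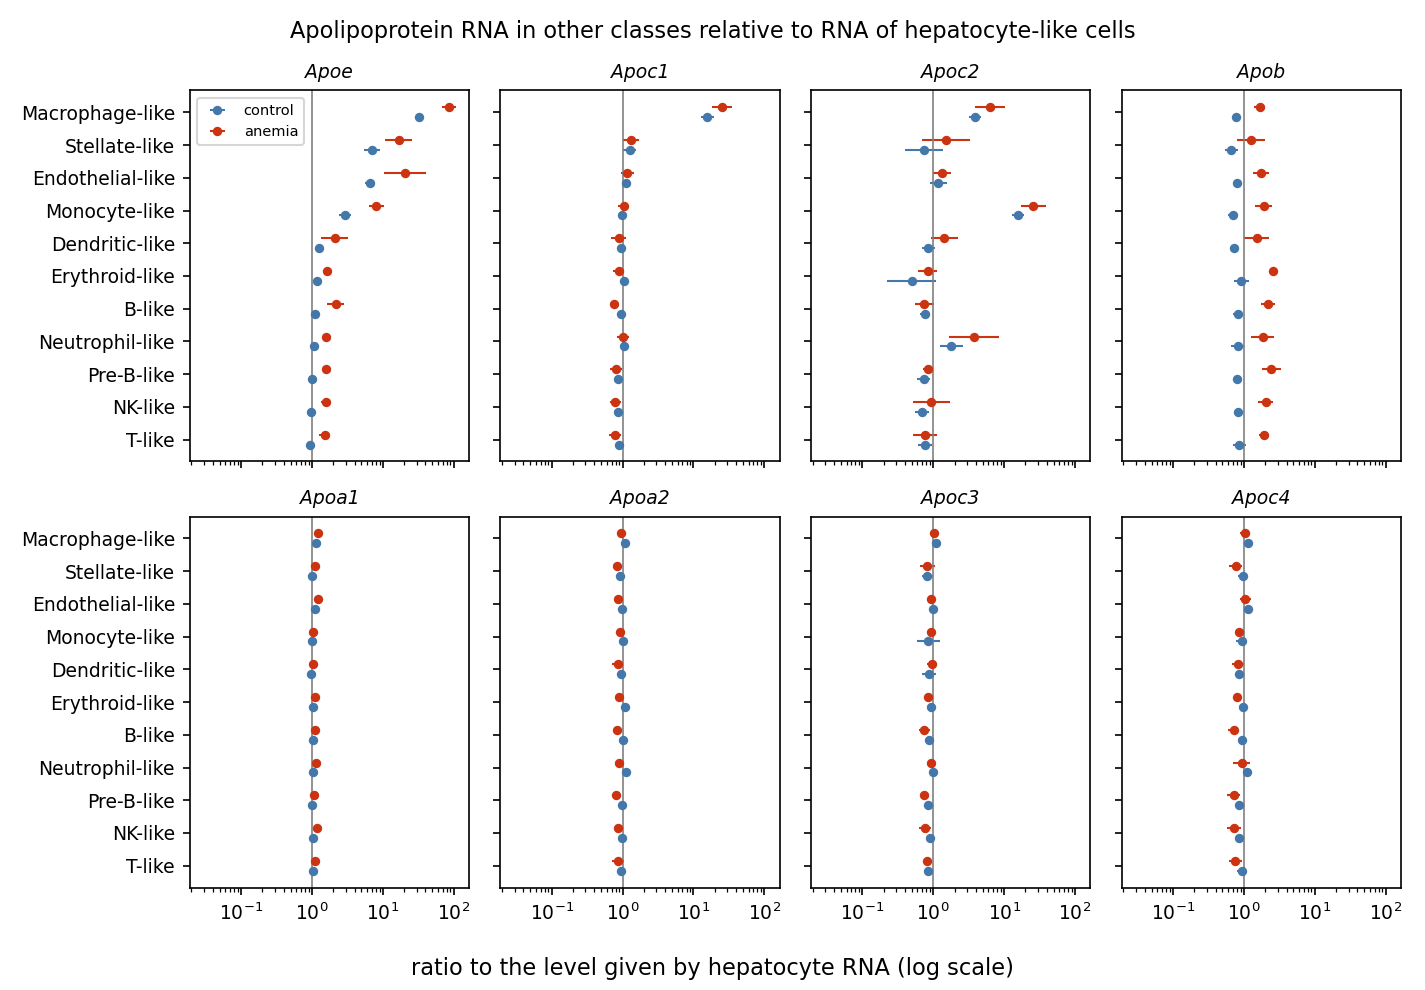
Ratio of 8 genes to 14 hepatocyte genes, relative to hepatocyte-like cells of the same mouse, by class on a log axis (geometric mean and SD of the log2 ratio per group, control in blue and anemic in red). Apoe and Apoc1 stood far above 1 in macrophage-like cells (32.9 and 85.7 for Apoe, 15.7 and 25.3 for Apoc1) and Apoc2 in monocyte-like cells (15.9 and 25.9). With these 14 genes as reference, Apoa1, Apoa2, Apoc3 and Apoc4 lay near 1 in every class.

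The ratio differed between the groups in 41 of the 94 class and gene pairs with enough counts (exact two-sided permutation over mice, adjusted over the 94). Ratios were not computed for genes outside the set, so this count has no share over other genes to be read against. The ratios of Apoe and Apob were higher in anemic mice in 11 of 11 classes each, from 0.668 to 0.917 up to 1.25 to 2.59 for Apob. That of Apoa5 was higher in 3 of 5 (0.73 to 0.915 up to 1.42 to 1.66). A higher ratio need not be a higher level, since the 14 genes and the hepatocyte-like base moved too. In macrophage-like cells the Apoe ratio was 32.9 in control and 85.7 in anemic mice, while its level was not called. The 14 genes there were at 1.30% and 0.729% of their hepatocyte-like level, and the log2 fold change of Apoe in hepatocyte-like cells was -0.66. With Alb as the only reference gene, Apoe passed in 4 of the 11. Apoa2 differed in 7 classes, Apoa1 in 3, Apoc1 and Apoc4 in 2 each, Apoa4 and Apoc2 in 1 each and Apoc3 in none. These counts depended on the reference genes, and of the pairs that passed 30 were higher and 11 lower in anemic mice, against 15 and 44 with Alb alone and 40 and 2 with the list without Alb. With Alb alone Apoa1 passed in 9 classes, Apoa2 in 10, Apoc1 in 7, Apoc3 in 8, Apoc4 in 8 and Apoa5 in 0 of 5 (exact permutation, adjusted over the 94), and with the list without Alb Apoa2 passed in 1 and Apoc4 in 0. Apob passed in 11 of 11 in both. They depended as well on which hepatocyte-like cells were the base. With cluster 25 alone as the base, chosen after seeing the data, 0 of 94 pairs passed the exact permutation test (23 at an unadjusted p under 0.05, lowest adjusted p 0.0509), and the ratios of Apob were 0.343 to 0.471 in control and 0.34 to 0.706 in anemic mice. With cluster 25 left out of the base they were 2.89 to 3.97 and 3.22 to 6.68, and Apob passed in 5 and Apoe in 9 of 11 classes. The side of 1 on which Apob lay therefore turned with the base.

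The edgeR test within each other class called 33 of the 108 class and gene pairs with enough UMIs, 17 higher and 16 lower in anemia. This even split did not hold under every setting, with 15 higher and 29 lower of 105 pairs when doublets were left out, and 5 higher and 12 lower of 75 pairs with a mean of at least 50 UMIs. Among all genes 19.3% were called in endothelial-like cells, 4.67% in stellate-like, 2.57% in macrophage-like, 2.09% in pre-B-like, 1.9% in B-like, 0.964% in monocyte-like, 0.567% in neutrophil-like, 0.547% in erythroid-like, 0.539% in dendritic-like and 0.307% in NK-like cells, and 0.249% in the T-like class. Apoa4 was higher in 10 of the 11 classes (all but monocyte-like cells, adjusted p = 0.0742), and Apoc3 in 7 (B-like, pre-B-like, dendritic-like, endothelial-like, macrophage-like, monocyte-like and stellate-like). Only 0.0127 to 0.206% of thinned control cells of the 11 classes had a UMI of Apoa4, and anemic mice had medians of 12.5 to 102 UMIs. The filter, a mean of 5 UMIs over all mice, could be met by the anemic mice alone, so the Apoa4 calls are no separate support for a rise. Apoa1 was lower in 5 classes, Apoc4 in 5, Apoe in 3, Apoa2 in 2 and Apob in 1. In B-like cells, for example, Apoa1 went from 512 ± 75.9 to 194 ± 102 CPM and was found in 41.5% of thinned control and 18.5% of thinned anemic cells, while the hepatocyte RNA named above was also lower in anemic mice in these classes. Without control mouse 1, 3 or 5 the number of pairs called was 19, 21 and 20.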

How the data were processed

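The members and gene lists were chosen with earlier results of these data known. Values are the authors' deposited UMI counts per gene and barcode, which the file headers credit to Cell Ranger 7.0.0, without normalization. The labels and the paper's methods name different versions of the 10x kit. The submitters' processing notes name the build mm10, and gene coordinates are those of GENCODE M21 on the matching GRCm38.

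Of 207537 barcodes, 206146 were kept that had 500 to 50000 UMIs with no more than 50% of them mitochondrial. Cells were clustered with scanpy 1.11.5 (2000 variable genes without the 10 members, 20 principal components, 20 neighbours) and the Leiden method at resolution 2. Clusters were named "X-like" from markers. Conditions that left clusters unnamed, which hold 39993 cells, were set after the clusters had been seen. Doublets (11.3 to 16.9% of a library, called from simulated doublets) were kept, and 58.3% of the stellate-like cells carried that call.

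UMIs were summed per mouse and class and tested with edgeR 4.0.16 (quasi-likelihood, TMM, R 4.3.3) for genes that averaged 5 UMIs or more per mouse, without mitochondrial and ribosomal protein genes, with Benjamini-Hochberg adjustment over all genes of the class. CPM carry no TMM factors, which were 1.047 to 1.114 in control and 0.887 to 0.972 in anemic hepatocyte-like sums, so a ratio of mean CPM differs somewhat from a fitted fold change. A class needed at least 50 cells per mouse in at least 4 mice per group. The study's joint voom model (limma 3.58.1) and DESeq2 1.42.0 were alternatives. On simulated data of the hepatocyte-like class (11203 genes), 97 of 100 genes changed by 1 on the log2 scale and 100 of 100 changed by 2 were recovered, with 8 unchanged genes called. The simulation planted as many rises as falls, in few and well-counted genes, with the same dispersion for every gene. In the data 47.4% of genes were called, and the simulation does not show how the test behaves at such a share. Ratios to 14 hepatocyte genes had 0.5 UMIs added to each sum and a median of at least 10 UMIs. All 10 members are named, and of each pathway list up to 4 called genes per direction and the regulators. A few genes of these lists are not reported here. Standard deviations describe the spread between mice, and p-values compare the groups with mice as the units. The SE of a fold change was derived from its coefficient and the F statistic of the test.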

Additional observations from a re-analysis of the deposited data

Results flagged for a closer look

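Control mouse 6 lay apart from the other control mice in Apoa4, with 72.2 CPM in hepatocyte-like cells and 0.00389 UMIs of Apoa4 per UMI of Apoa1. Its gap to the next mouse exceeded Dixon's 95% critical value for 6 samples. These were 2 of 26 groups of values examined, and chance gives about 1 in 20. Without this mouse the log2 fold change of Apoa4 was 4.53, against 4.26 with it.

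In other classes, the change of a gene relative to 14 hepatocyte genes differed from that in the hepatocyte-like cells of the same mice (exact two-sided permutation over mice, adjusted over 94 pairs). This held for Apoe in 11 classes, Apob in 11, Apoa2 in 7, Apoa1 in 3, Apoa5 in 3, Apoc1 in 2, Apoc4 in 2, Apoa4 in 1 and Apoc2 in 1. Genes outside the set were not examined in this way. With Alb as the only reference gene the counts were 4 for Apoe, 11 for Apob, 10 for Apoa2, 9 for Apoa1, 0 for Apoa5, 7 for Apoc1, 8 for Apoc4 and 8 for Apoc3, and with the list without Alb Apoa2 passed in 1 class. With cluster 25 as the only base, 0 of the 94 pairs passed the exact permutation test (23 at an unadjusted p under 0.05).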

How the results depend on the processing

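In hepatocyte-like cells the direction of Apoa4, Apoc3, Apoc2, Apoc1, Apoe and Apoa1 was the same under all alternatives run. The number of genes called, 5320 in all, was 2198 with at most 10% mitochondrial UMIs (10237 genes tested), 3519 with a mean of at least 50 UMIs (5221 tested) and 1145 without cluster 25 (9780 tested), and 4784 to 5353 with 1 mouse left out. Of the 10 members, 8 in all, 3, 5, 5, 4, 3 and 5 were called within clusters 19, 22, 23, 24, 25 and 28, which hold fewer cells, and 8 to 9 with 1 mouse left out. In other classes, of 108 pairs, 33 in all, 17 were called with a mean of at least 50 UMIs and 19 to 39 with 1 mouse left out, and of 94 ratio pairs, 41 in all, 23 passed with hepatocyte-like cells without cluster 25 as the base, 0 with cluster 25 alone, and 36 to 41 with 1 mouse left out. For shares of cells, 8 to 9 genes passed with 1 mouse left out. The cause of these differences was not tested.

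In hepatocyte-like sums, the deviations of same-numbered mice of the 2 groups from their group means had r of -0.21 to 0.30. The highest, 0.30, was that of number 4, and the lowest, -0.21, that of number 6. These correlations come from 1 class and cannot decide whether the numbers pair mice. With the replicate number as a block, 5095 genes and 8 members were called in hepatocyte-like cells, and 54 pairs in other classes, 18 higher and 36 lower in anemic mice.

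Signs turned in the following cases. Apoa2 was at -0.036 with at most 10% mitochondrial UMIs, -0.12, -0.050 and -0.49 in clusters 23, 25 and 28, -0.049 without TMM factors and -0.15 without cluster 25. Apoc4 was at -0.041, -0.060 and -0.14 in clusters 24, 25 and 28, -0.018 without TMM factors and -0.092 without cluster 25. Apob was at 0.028 in cluster 19 and Apoa5 at 0.093 in cluster 25. With Alb as the only reference gene, the log2 ratio difference of Apoa1 was -0.38 in endothelial-like, -0.45 in erythroid-like and -0.38 in NK-like cells, and that of Apoe in erythroid-like cells -0.14. With the list without Alb, that of Apoa2 was 0.0014 in endothelial-like and 0.0087 in NK-like cells. With cluster 25 as the base, Apoa1 was at -0.070, -0.069 and -0.039 in endothelial-like, erythroid-like and NK-like cells, Apoa2 at 0.11, 0.048 and 0.099 in endothelial-like, macrophage-like and NK-like cells, Apoc4 at 0.0092 and Apoe at -0.014 in erythroid-like cells, and Apob at -0.010 in stellate-like cells. The share of cells with Apoc4 differed by -0.78 percentage points without thinning, and by -0.0041 to 1.40 with 1 mouse left out. Depth limits Apoa4 and Apoa5 outside hepatocyte-like cells: over the mice of both groups Apoa4 had enough UMIs for a ratio in endothelial-like cells only.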

Other observations

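Over the 14 named classes, the genes outside the set whose mean log2 level was most like that of Apoa4 were Fabp1 (Pearson r 0.995), Rgn (0.995) and Serpina3m (0.994). For Apob they were Alb (0.995), Ttr (0.993) and Pzp (0.993), and for Apoe they were Fuom (0.918), Tmem205 (0.916) and Igf1 (0.912). The classes share libraries and free RNA, and the values are a description.

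Cholangiocyte-like cells, 697 in all and not tested, had a UMI of Apoe in 74.1% of thinned control and 71.6% of thinned anemic cells, and 85.5% of them were called doublets.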
